A study of Drosophila melanogaster with 12 samples.

Results

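The third-chromosome chorion cluster of Drosophila melanogaster holds 4 genes, Cp15, Cp16, Cp18 and Cp19, each of which encodes a structural protein of the eggshell. The members were taken by name from a table of 15446 genes, and all 4 are in it. In the Ensembl annotation of BDGP6 they lie on chromosome arm 3L, all on the + strand, in the order Cp18, Cp15, Cp19, Cp16. They span 5809 bases, with gaps of 867, 798 and 1339 bases between neighbours, and 0 other protein-coding genes lie among them. Each has 1 annotated transcript with 2 exons, and no member overlaps another annotated gene. Their proteins are 115 residues (Cp15), 138 residues (Cp16), 172 residues (Cp18) and 173 residues (Cp19) long.

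The chorion is the outer layer of the insect eggshell, and the somatic follicle cells that surround each oocyte secrete it in the last stages of oogenesis. To make enough of its proteins in a short time, Drosophila follicle cells amplify the chorion loci on the third and X chromosomes by repeated firing of local replication origins, and the third-chromosome locus reaches the higher copy number. An amplification control element beside Cp18 and an origin between Cp18 and Cp15 drive this at the third-chromosome locus. The X-linked genes Cp36 and Cp38 are expressed before the third-chromosome genes, and Cp15 is among the last chorion genes to peak.

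RNA was sequenced from ovaries in 12 libraries, in 6 groups of 2. Of the groups used here, 1 was an nxf2 mutant (nxf2 -/-) with tethered Panx FL10B, set against an nxf2 heterozygote (nxf2 +/-) with the same tethered Panx FL10B. An nxf2 mutant made by CRISPR/Cas9, without Panx FL10B, was set against the wild-type stock W1118. A germline-specific knockdown of nxf2 was set against the wild-type stock attp2. Names were the only guide to which stock served as control for which nxf2 group. All flies were 3 to 5 old, with no unit given, were fed yeast and were kept at 25°C. nxf2 belongs to the nuclear RNA export factor family and acts with Panx and Piwi in the silencing of transposons in the germline and in follicle cells. What FL10B stands for, the alleles of the mutants and the driver of the knockdown are not stated in the sources used here. Chorion genes are transcribed in follicle cells, whereas the knockdown was germline-specific. The labels do not say whether replicates came from separate flies, so the p-values cover the spread among these libraries and no more, and that spread may be technical.

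Libraries held 3811630 to 11260925 counts, and 8638 genes passed the filter on low counts, all 4 members among them. The targeted gene was lower in 2 of the 3 comparisons of nxf2. nxf2 had 19.0 and 17.2 CPM (counts relative to sequencing depth, scaled between libraries) in the knockdown, against 36.1 and 49.2 CPM in attp2. It had 29.9 and 33.6 CPM in the mutant, against 69.5 and 68.8 CPM in W1118. With Panx FL10B it had 30.2 and 30.1 CPM in the mutant, against 34.6 and 35.8 CPM in the heterozygote (log2 fold change -0.22, adjusted p = 0.334 by edgeR's quasi-likelihood test), so its RNA level does not check the genotype of those 4 libraries. Germline genes were present in all groups, with a summed level of 2750 to 3880 CPM for 6 genes including vas and osk, as were 4 early follicle cell genes with 234 to 469 CPM. The reproductive tract gland genes Send1 and Send2 were at 0 in both libraries of 4 groups and below 1 CPM in W1118 and attp2.

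The members' RNA was lowest in the nxf2 mutant with Panx FL10B, for all 4 genes and in both libraries. Cp15 had 235.1 and 124.6 CPM there, against 1868 and 1910 CPM in the heterozygote with Panx FL10B. Cp16 had 7.03 and 3.89 CPM in that mutant, against 794.8 and 1026 CPM in the heterozygote. These 2 genes mark the ends of the range: Cp15 retained the most RNA in the mutant and Cp16 the least. Cp18 had 14.9 and 9.36 CPM in the mutant with Panx FL10B, against 654.4 and 615.4 CPM in the heterozygote. Cp19 had 44.5 and 29.2 CPM in that mutant, against 1404 and 1327 CPM in the heterozygote. For each of the 4 genes the libraries of the 2 groups lay far apart and did not overlap. The counts behind the lowest values were small, with 56 and 27 counts of Cp16 in the mutant with Panx FL10B.

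**Figure D1:**
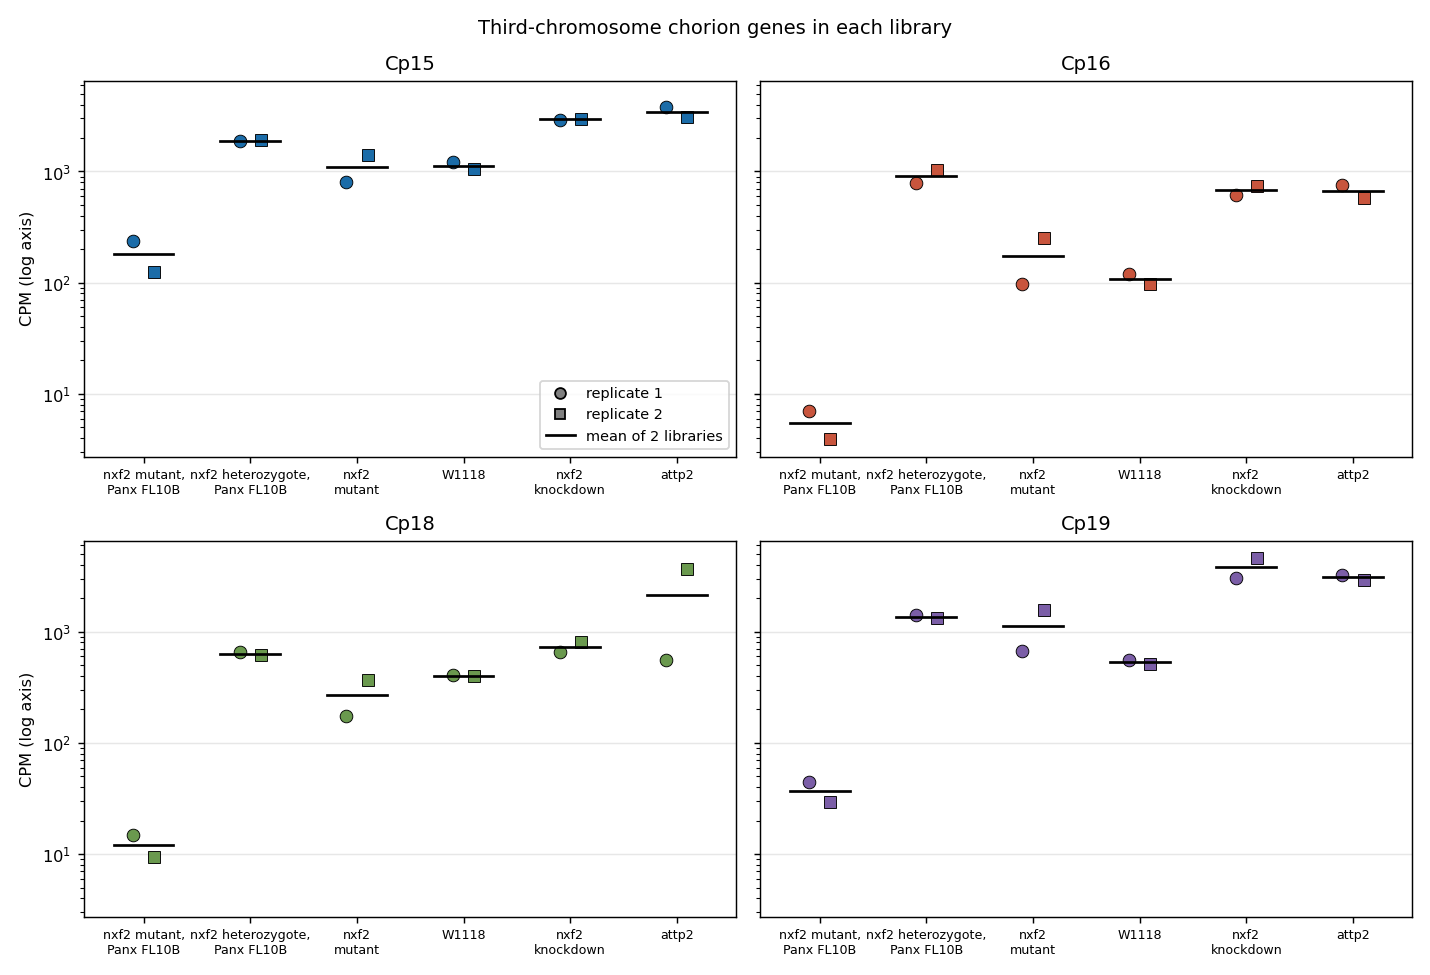
CPM on a log axis of the 4 chorion genes in each of the 12 libraries (circle, replicate 1; square, replicate 2; line, mean of 2 libraries). The mutant with Panx FL10B holds the lowest values of every gene, and attp2 replicate 2 stands far above attp2 replicate 1 for Cp18 (3675 and 559.3 CPM).

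All 4 genes were called lower in the mutant than in the heterozygote with Panx FL10B, where 19.5% of the tested genes were called, 9.27% higher and 10.2% lower, and the median log2 fold change was -0.01. Cp16 fell by the most, 164-fold (log2 fold change -7.36, SE 0.56, adjusted p = 8.59e-05). Cp18 fell 51.7-fold (log2 fold change -5.69, SE 1.02, adjusted p = 0.00927) and Cp19 fell 36.8-fold (log2 fold change -5.20, SE 0.45, adjusted p = 0.000139). Cp15 fell the least, 10.5-fold (log2 fold change -3.39, SE 0.33, adjusted p = 0.000174). Cp16 in the heterozygote was itself above W1118 (log2 fold change 3.08). Against the mutant without Panx FL10B, the falls of Cp16 (-4.97) and Cp19 (-4.92) were close, with -4.46 for Cp18 and -2.62 for Cp15. The standard error of Cp18 was the widest of the 4, and without attp2 replicate 2 it was 0.47, with an adjusted p of 0.000514. The Cp18 call was lost without replicate 1 of the mutant with Panx FL10B (adjusted p = 0.0726) or without its replicate 2 (adjusted p = 0.0796). In ovary RNA, fewer late follicle cells and less RNA per cell cannot be told apart.

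Other eggshell genes moved with the cluster in this comparison. All 5 X-linked chorion genes were called lower, with log2 fold changes of -5.01 to -6.47. Among 13 late secreted and crosslinking eggshell genes, 12 were called lower and 1, the cyclooxygenase-like Pxt, was not (median log2 fold change -6.70); Muc4B had -7.56 and Muc12Ea -7.43. Among 10 vitelline membrane genes, which form the inner eggshell layer and are made before the chorion, 9 were called lower and 1, clos, higher, with a median of -1.12. The falls of Vm32E (-1.18) and Vm26Aa (-1.25) were thus smaller on the log2 scale than that of any chorion gene. Of 4 yolk genes, Yp2 (-0.62) and Yp3 (-1.95) were called lower, and Yp1 (-0.75, adjusted p = 0.0575) and the yolk receptor yl (0.28, adjusted p = 0.204) were not called.

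Amplification depends on the same licensing factors as replication in general. Of 25 genes of amplification and origin licensing, 19 were called lower and 1 higher, with a median log2 fold change of -0.69. Here the mutant is set against the heterozygote with Panx FL10B, where 9.27% of the tested genes were called higher and 10.2% lower. dup, the Cdt1 licensing factor that chorion amplification needs, had -0.79, and the origin recognition subunit Orc1 had -1.16. The single rise was that of chif, the Dbf4-like activator of Cdc7 (0.54). Of 22 regulators of amplification and of chorion transcription, 5 were called higher (E2f, ttk, EcR, ftz-f1 and tai) and 3 lower (Rbf, Rbf2 and Caf1), with a median of 0.01. ftz-f1, a nuclear receptor, had 0.63, and Rbf2, a retinoblastoma family repressor, had -0.82. The part of these genes in the members' fall was not tested.

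Markers of other cell types moved in the same libraries. Muscle sheath genes summed to 399 to 415 CPM in the mutant with Panx FL10B, against 210 to 215 CPM in the heterozygote, and 3 of 6 were called higher (Mlc2, wupA and bt). Hemocyte genes summed to 18.4 to 22.0 CPM in the mutant and 6.92 to 8.32 CPM in the heterozygote, with 1 of 2 tested genes called higher (Hml) and He at 0 in the heterozygote. Fat body genes summed to 46.1 to 48.8 CPM in the mutant and 71.3 to 76.2 CPM in the heterozygote, with 2 of 5 called higher (Fbp1 and Lsp1gamma). Germline genes summed to 3400 to 3480 CPM in the mutant and 2750 to 2930 CPM in the heterozygote, with 2 of 6 called higher (osk and bgcn) and 1 lower (nos). Early follicle cell genes summed to 273 to 277 CPM in the mutant and 262 CPM in both libraries of the heterozygote, with 1 of 4 called lower (Fas3). Midgut genes summed to 2.38 to 3.17 CPM in the mutant and 1.51 to 2.5 CPM in the heterozygote, and neither tested gene was called by edgeR, 1 of them (alphaTry) with an unadjusted p under 0.05 (0.0433). The part of these shifts in the members' fall was not tested.

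The nxf2 mutant without Panx FL10B showed no such fall against W1118. Cp15 had 807.4 and 1409 CPM in the mutant, against 1207 and 1052 CPM in W1118. Cp16 had 97.9 and 250.1 CPM in the mutant, against 119.4 and 97.3 CPM in W1118. For both genes the 2 groups overlapped. Cp18 had 174.1 and 366.1 CPM in the mutant, against 408.1 and 396.2 CPM in W1118. Cp19 had 674.2 and 1567 CPM in the mutant, against 562.0 and 508.9 CPM in W1118. Here the groups did not overlap: both mutant libraries were below W1118 for Cp18 and above it for Cp19.

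None of the 4 was called between the mutant and W1118 by edgeR, where 26.8% of the tested genes were called, 15% higher and 11.8% lower. The log2 fold changes were -0.03 for Cp15 (SE 0.30, adjusted p = 0.963), 0.69 for Cp16 (SE 0.41, adjusted p = 0.256), -0.58 for Cp18 (SE 0.78, adjusted p = 0.633) and 1.07 for Cp19 (SE 0.37, adjusted p = 0.0679). Cp19 alone had an unadjusted p under 0.05 (0.0206), and DESeq2 called it (adjusted p = 0.0463). Replicate 2 of the mutant was 1.74- to 2.55-fold above replicate 1 for all 4 genes. Without mutant replicate 1, Cp16 (log2 fold change 1.22, adjusted p = 0.00497) and Cp19 (1.55, adjusted p = 0.00117) were called higher. Of the X-linked chorion genes, 3 of 5 were called higher (Cp36 0.92, Cp38 1.25, Cp7Fa 1.98), as were 8 of 13 late secreted eggshell genes. Of 10 vitelline membrane genes, 5 were called lower and 1 higher (median -0.35), and 2 of 4 yolk genes were called lower (median -0.44). Markers of other cell types also differed: fat body genes summed to 108 to 249 CPM in the mutant and 73.1 to 75.8 CPM in W1118, with 2 of 5 called higher, and muscle genes to 254 to 456 CPM in the mutant and 277 to 284 CPM in W1118, with 1 of 6 called higher. Hemocyte genes summed to 5.71 to 9.28 CPM in the mutant and 3.35 to 4.29 CPM in W1118, with 1 of 2 tested genes called higher, and germline genes to 2840 to 2950 CPM in the mutant and 3750 to 3880 CPM in W1118, with 2 of 6 called lower. Their part in these values was not tested.

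The effect of the mutation on the cluster differed with Panx FL10B. The difference of the effects, mutant over heterozygote with Panx FL10B minus mutant over W1118, was called lower for all 4 genes, beside 21.2% of the tested genes called, 9.26% higher and 12% lower. It was -3.36 for Cp15 (SE 0.44, adjusted p = 0.000981), -8.05 for Cp16 (SE 0.69, adjusted p = 0.000175), -5.12 for Cp18 (SE 1.26, adjusted p = 0.0291) and -6.27 for Cp19 (SE 0.58, adjusted p = 0.00021) on the log2 scale. This was not particular to the cluster. All 5 X-linked chorion genes were called lower for the same difference (median -6.32), as were 12 of 13 late secreted and crosslinking eggshell genes (median -7.45). Of 10 vitelline membrane genes, 7 were called lower and 1 higher (median -0.63). The controls were a heterozygote on one side and a wild-type stock on the other, and the processing notes of the libraries with and without Panx FL10B differ, so these cannot be told apart from Panx FL10B. The Cp18 call was lost in 7 of 8 fits that each left out 1 library of these 4 groups, with adjusted p-values of 0.0512 to 0.108, while the log2 difference stayed between -5.50 and -4.48 in those 7.

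The germline knockdown showed no called change of the cluster relative to attp2. Cp15 had 2889 and 2991 CPM in the knockdown, against 3782 and 3064 CPM in attp2. Cp16 had 620.2 and 734.9 CPM in the knockdown, against 749.2 and 573.3 CPM in attp2. Cp19 had 3041 and 4570 CPM in the knockdown, against 3222 and 2936 CPM in attp2. The groups overlapped for Cp16 and Cp19, and both knockdown libraries were just below attp2 for Cp15. None of the 4 was called by edgeR or DESeq2, and none had an unadjusted p under 0.05, where edgeR called 15.7% of the tested genes, 8% higher and 7.7% lower. The log2 fold changes were -0.22 for Cp15 (SE 0.30, adjusted p = 0.665), 0.04 for Cp16 (SE 0.38, adjusted p = 0.966), -1.53 for Cp18 (SE 0.78, adjusted p = 0.232) and 0.31 for Cp19 (SE 0.36, adjusted p = 0.614).

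The Cp18 value in this comparison rests on 1 library. Cp18 had 657.7 and 804.0 CPM in the knockdown, against 559.3 and 3675 CPM in attp2. With attp2 replicate 2 left out the log2 fold change was 0.39 (adjusted p = 0.624), and with attp2 replicate 1 left out it was -2.33 (adjusted p = 0.00886). Among the other eggshell genes, 4 of 5 X-linked chorion genes were called higher in the knockdown (Cp36 0.75, Cp38 0.85, Cp7Fb 1.18, Cp7Fc 1.13), as were 9 of 10 vitelline membrane genes, with a median of 1.35. Of 13 late secreted and crosslinking eggshell genes, 6 were called higher and 1 lower, with a median of 0.73. Fat body genes summed to 15.2 to 44.7 CPM in the knockdown and 87.2 to 98.6 CPM in attp2, and 0 of 5 were called by edgeR, 1 of them (Rfabg) with an unadjusted p under 0.05 (0.0145). Of 6 germline genes and of 4 early follicle cell genes, 1 each was called higher in the knockdown. The difference of the effects of mutant and knockdown, each against its own stock, was called for none of the 4 by edgeR or DESeq2, and none had an unadjusted p under 0.05, beside 27% of the tested genes called by edgeR, 14.5% higher and 12.5% lower. It was 0.19 for Cp15 (SE 0.43), 0.65 for Cp16 (SE 0.56), 0.96 for Cp18 (SE 1.09) and 0.76 for Cp19 (SE 0.52). Without mutant replicate 1, Cp16 (1.18, adjusted p = 0.0164) and Cp19 (1.24, adjusted p = 0.0137) were called, and without attp2 replicate 1, Cp18 was (1.75, adjusted p = 0.0485). A p that misses the threshold does not show that mutant and knockdown acted alike.

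**Figure D2:**
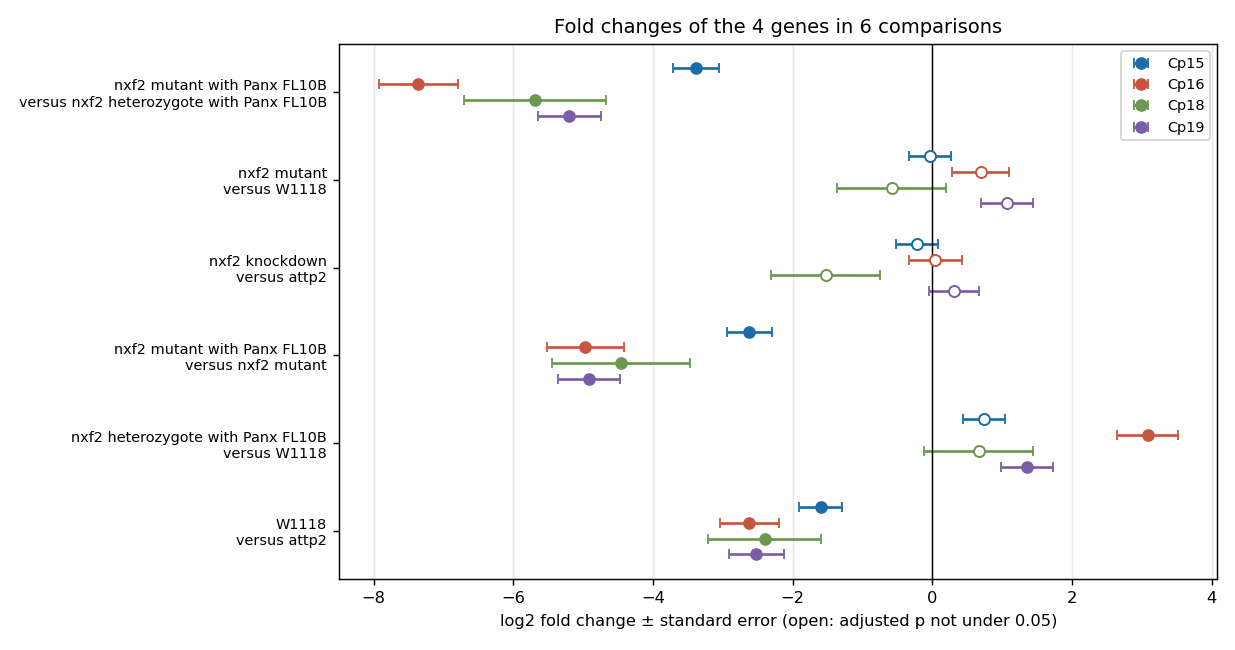
Log2 fold changes with standard errors of the 4 genes in 6 comparisons (filled, adjusted p under 0.05; open, not). All 4 lie between -7.36 and -3.39 in the mutant against the heterozygote with Panx FL10B, and none is filled in the mutant against W1118 or the knockdown against attp2.

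The wild-type stocks themselves differed. Relative to attp2, all 4 genes were lower in W1118, where 55.5% of the tested genes were called, 25.2% higher and 30.3% lower. Cp15 fell by 1.6 on the log2 scale (SE 0.31, adjusted p = 0.002), Cp16 fell by 2.62 (SE 0.42, adjusted p = 0.000996), Cp18 fell by 2.40 (SE 0.81, adjusted p = 0.0407) and Cp19 fell by 2.52 (SE 0.39, adjusted p = 0.000699). Without attp2 replicate 2 the Cp18 value was -0.48 (adjusted p = 0.384), and its call was also lost without W1118 replicate 1 (adjusted p = 0.138) or replicate 2 (adjusted p = 0.155). Of the X-linked genes, 3 were lower in W1118 than in attp2 and 2 higher (Cp7Fb 0.65, Cp7Fc 1.72). Midgut genes summed to 7.5 to 12.1 CPM in W1118 and 10.7 to 33.8 CPM in attp2, with 1 of 2 tested genes called lower, and hemocyte genes to 3.35 to 4.29 CPM in W1118 and 3.48 to 10.9 CPM in attp2, with 1 of 2 called lower. Of 6 muscle genes 1 was called higher in W1118, and 2 of 6 germline and 2 of 4 early follicle cell genes were called in each direction. Their part in the difference between the stocks was not tested. The calls of the mutant and the knockdown changed with the stock. Against attp2, all 4 genes were lower in the mutant (log2 fold changes -1.63, -1.93, -2.97 and -1.46 for Cp15, Cp16, Cp18 and Cp19), beside 56.1% of the tested genes called, 26.9% higher and 29.2% lower. Against W1118, Cp15 (1.38), Cp16 (2.65) and Cp19 (2.83) were higher in the knockdown and Cp18 (0.86) was not called, beside 51.9% of the tested genes called, 28.4% higher and 23.5% lower.

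Comparisons across the libraries with and without Panx FL10B gave a fall and a rise. The processing notes of these 2 sets of libraries differ, so processing cannot be told apart from Panx FL10B here. The heterozygote also differs from W1118 in its nxf2 genotype. Relative to the mutant without Panx FL10B, the mutant with it had less RNA of all 4 genes, beside 38.3% of the tested genes called, 18.4% higher and 19.9% lower. Cp15 fell by 2.62 on the log2 scale (SE 0.32, adjusted p = 0.000269), Cp16 fell by 4.97 (SE 0.55, adjusted p = 0.000242), Cp18 fell by 4.46 (SE 0.99, adjusted p = 0.0117) and Cp19 fell by 4.92 (SE 0.44, adjusted p = 6.75e-05). All 5 X-linked chorion genes (median -6.08) and 12 of 13 late secreted and crosslinking eggshell genes (median -6.52) were called lower between the mutants too. The Cp18 call was lost without replicate 1 (adjusted p = 0.0658) or replicate 2 (adjusted p = 0.0768) of the mutant with Panx FL10B, and when only these 4 libraries were fitted, Cp15 (adjusted p = 0.0709) and Cp16 (adjusted p = 0.0542) were not called. Relative to W1118, the heterozygote with Panx FL10B had more RNA of Cp16 (log2 fold change 3.08, SE 0.43, adjusted p = 0.00108) and of Cp19 (1.35, SE 0.37, adjusted p = 0.0258), beside 32% of the tested genes called, 16.8% higher and 15.2% lower. Cp15 (0.74, adjusted p = 0.0962) and Cp18 (0.66, adjusted p = 0.569) were not called. The Cp19 call was lost without any 1 of these 4 libraries (adjusted p-values of 0.0848 to 0.14) and without attp2 replicate 2 (adjusted p = 0.0607). Hemocyte genes summed to 18.4 to 22.0 CPM in the mutant with it and 5.71 to 9.28 CPM in the mutant without it, and to 6.92 to 8.32 CPM in the heterozygote with Panx FL10B and 3.35 to 4.29 CPM in W1118. Of 2 tested hemocyte genes, 1 was called higher in each comparison. In the mutant with against the mutant without Panx FL10B, 3 of 5 fat body genes were called higher and 1 lower (summed level 46.1 to 48.8 CPM with it and 108 to 249 CPM without it). There 1 of 2 tested midgut genes and 1 of 6 muscle genes were called higher. In the heterozygote with Panx FL10B against W1118, 2 of 5 fat body genes were called higher (71.3 to 76.2 CPM in the heterozygote and 73.1 to 75.8 CPM in W1118) and 1 of 6 muscle genes lower (210 to 215 CPM in the heterozygote and 277 to 284 CPM in W1118). Of 6 germline genes, 2 were called higher and 2 lower in the comparison of the mutants, and 2 lower in that of the heterozygote with W1118. Of 4 early follicle cell genes, 1 was called higher and 2 lower between the mutants, and 1 lower in the heterozygote. The part of these markers in the members' values was not tested.

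The 4 genes together took up to 0.994% of all counts of a library. Their share was 0.0309% (95% Clopper-Pearson interval 0.0297 to 0.0322%) and 0.0172% (0.0162 to 0.0182%) in the mutant with Panx FL10B, against 0.498% (0.491 to 0.504%) and 0.513% (0.508 to 0.519%) in the heterozygote. It was 0.178% (0.175 to 0.181%) and 0.361% (0.357 to 0.365%) in the mutant, against 0.234% (0.229 to 0.239%) and 0.207% (0.204 to 0.211%) in W1118. The knockdown gave 0.675% (0.669 to 0.68%) and 0.836% (0.83 to 0.841%), against 0.807% (0.802 to 0.813%) and 0.994% (0.988 to 1%) in attp2. In attp2 replicate 2, which held the highest share, Cp18 gave 35.9% of the summed counts of the 4 genes, against 6.73% in replicate 1. The intervals cover counting error only, and in each of the 6 groups those of the 2 replicates did not overlap.

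The make-up of the cluster's RNA also differed between groups. Cp15 gave 78.0% and 74.6% of the summed counts of the 4 genes in the mutant with Panx FL10B, against 39.6% and 39.2% in the heterozygote. Cp16 gave 2.33% of them in both libraries of that mutant (intervals 1.76 to 3.01% and 1.54 to 3.37%), against 16.8% and 21.0% in the heterozygote. Cp19 gave 14.8% and 17.5% in the mutant, against 29.7% and 27.2% in the heterozygote. In the other 8 libraries Cp15 gave 29.9 to 52.6% and Cp16 gave 4.73 to 9.01%, so the Cp15 share in the mutant with Panx FL10B was above, and the Cp16 share below, that of every other library. The Cp18 share was 4.95% and 5.6% in that mutant, and the intervals of each of the 4 shares overlapped between its 2 libraries. In attp2 replicate 2 the Cp18 share was 35.9%, against 6.73% in replicate 1.

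**Figure D3:**
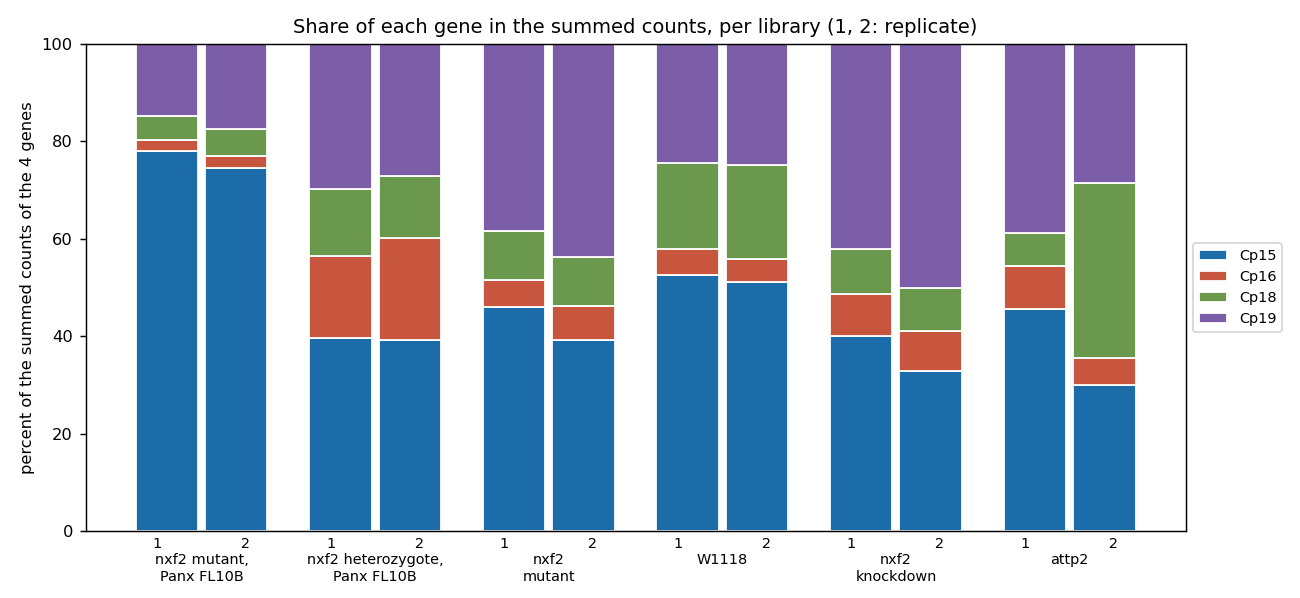
Percent of the summed counts of the 4 genes that each gene gives, per library (stacked bars, 1 and 2 are replicates). The Cp15 part is 78.0% and 74.6% for the mutant with Panx FL10B, and the Cp18 part is 35.9% for attp2 replicate 2.

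Per kb of coding sequence, Cp15 had the highest level of the 4 in 11 of 12 libraries, and Cp19 in knockdown replicate 2. In the mutant with Panx FL10B the levels were 676 and 358 CPM per kb for Cp15, 85.3 and 56.0 for Cp19, 28.8 and 18 for Cp18, and 16.8 and 9.32 for Cp16. In the heterozygote they were 5370 and 5490 CPM per kb for Cp15, 2690 and 2540 for Cp19, 1910 and 2460 for Cp16, and 1260 and 1190 for Cp18. Cp16 was thus the lowest member in the mutant with Panx FL10B, while Cp18 was the lowest in the heterozygote. Cp16 was also the lowest in both libraries of the mutant without Panx FL10B, in both of W1118 and in attp2 replicate 2. Cp18 was the lowest in both libraries of the knockdown and in attp2 replicate 1. The order per kb of exon was the same as per kb of coding sequence in all 12 libraries. Across groups, the order by CPM of 1 gene differed among members: the group with the highest mean was attp2 for Cp15 and Cp18, the knockdown for Cp19 and the heterozygote with Panx FL10B for Cp16. For Cp18 this rests on attp2 replicate 2 (3675 CPM), since replicate 1 (559.3 CPM) lay below both libraries of the knockdown and of the heterozygote with Panx FL10B. Neighbouring groups in that order overlapped for the mutant and W1118 in Cp15 and Cp16, for the knockdown and attp2 in Cp16, Cp18 and Cp19, and for the heterozygote with Panx FL10B and the mutant in Cp19.

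Cp18 in attp2 stood apart from every other abundant gene of that stock. Its counts were 6029 in replicate 1 and 40138 in replicate 2, a 6.57-fold difference in CPM. Among 2383 genes with a mean of at least 100 CPM in attp2 this was the widest gap, and 16 were over 2-fold and 2 over 4-fold apart. The other 3 members, at most 1339 bases from their nearest neighbour in the cluster, differed 1.10- to 1.31-fold between the same 2 libraries. The ratio of Cp18 to Cp15 counts was 1.20 in attp2 replicate 2, against 0.148 in replicate 1 and 0.0635 to 0.377 in the other 10 libraries.

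The balance between the third-chromosome and the X-linked cluster also differed between groups. The ratio of the summed counts of the 4 genes to those of the 5 X-linked genes was 1.57 and 1.02 in that mutant, against 0.380 and 0.387 in the heterozygote. It was 0.232 and 0.376 in the mutant, against 0.470 and 0.426 in W1118, and 0.327 and 0.385 in the knockdown, against 0.614 and 0.857 in attp2. The 2 libraries of the mutant with Panx FL10B were the only ones above 1. Without Cp18 the ratios were 1.49 and 0.966 in that mutant, against 0.328 and 0.338 in the heterozygote, and 0.573 and 0.549 in attp2. In the mutant with Panx FL10B, Cp15 gave 78.0% and 74.6% of the summed counts of the 4 genes. The ratios there thus rest mostly on Cp15 and do not show a shift of each member against the X-linked genes. These ratios were not tested, since with 2 libraries against 2 the smallest 2-sided p of an exact permutation test is 0.333. Within the mutant with Panx FL10B, replicate 1 was above replicate 2 by 1.52- to 1.89-fold for the 4 members and 1.75-fold for Cp36, and 1.26-fold for Cp7Fc. The replicates differed 1.01-fold for Cp38 and Cp7Fa, and Cp7Fb was higher in replicate 2 (5.9 and 6.91 CPM in replicates 1 and 2).

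**Figure D4:**
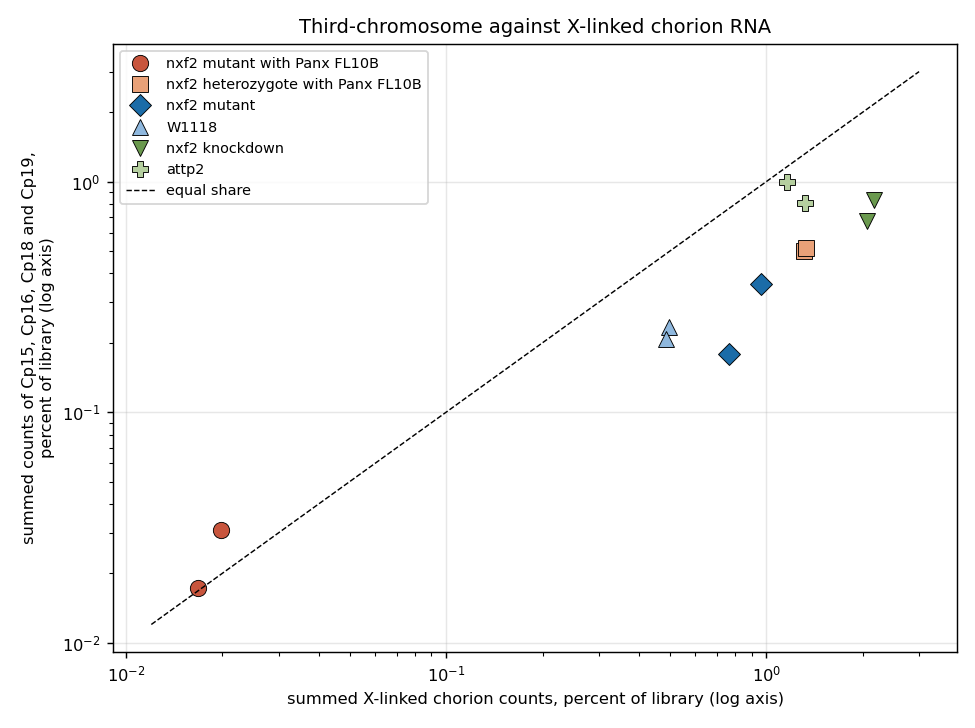
Summed counts of the 4 third-chromosome genes against those of the 5 X-linked chorion genes, as percent of each library on log axes (1 point per library; dashed line, equal share). The mutant with Panx FL10B lies at the lower left, on or above the line, with ratios of 1.57 and 1.02, and the other 10 libraries lie below it.

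The members followed each other across the 12 libraries, with Pearson's r of 0.919 to 0.982 between pairs on log2 CPM. Without the 2 libraries of the mutant with Panx FL10B, r over the other 10 was 0.589 (Cp16 and Cp18) to 0.922 (Cp15 and Cp19). Of 6610 genes with a mean of at least 10 CPM, the 8 most like the members' mean by Pearson's r were CG3630 (0.985), Nox (0.984), Tie (0.982), Cp36 (0.981), Cp38 (0.978), CG32642 (0.975), CG31661 (0.974) and Nha1 (0.97). Nox encodes an NADPH oxidase, Tie a receptor tyrosine kinase and Nha1 a sodium and proton antiporter. Without the mutant with Panx FL10B their r was 0.833 to 0.929 over 10 libraries, and by Spearman's rho 0 of the 8 were among the 8 most alike. The other X-linked genes were less alike, with r of 0.962 for Cp7Fa, 0.872 for Cp7Fb and 0.790 for Cp7Fc. Over the 10 libraries r was -0.312 for Cp7Fb and -0.762 for Cp7Fc. The libraries share groups and scaling, so these values describe the 12 libraries only.

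All 8 genes were called lower in the mutant than in the heterozygote with Panx FL10B, by very different amounts, beside 10.2% of the tested genes called lower. They were picked by r over all 12 libraries, those of this mutant included. A lower level there thus follows from the choice and is no separate result. CG3630 averaged 10.6 ± 0.96 CPM in the mutant and 31.0 ± 1.37 CPM in the heterozygote (SD, n = 2 each), with a log2 fold change of -1.54. Nox averaged 3.14 ± 1.59 CPM in the mutant and 44.2 ± 5.31 CPM in the heterozygote (-3.79). CG32642 averaged 4.89 ± 1.42 CPM in the mutant and 670 ± 2.96 CPM in the heterozygote (-7.08). A high r thus joined genes whose falls ranged from less than that of Cp15 to near that of Cp16.

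The genes beside the cluster did not share its fall, with 1 exception. Of the 5 protein-coding genes on each side, 8 passed the filter, and 1 of these, CG43965, was called between the mutant and the heterozygote with Panx FL10B, where 19.5% of the tested genes were called. CG43965 averaged 0.332 ± 0.0625 CPM in the mutant and 16 ± 4.09 CPM in the heterozygote (SD, n = 2 each), from 5 and 197 summed counts. Its log2 fold change was -5.52 (SE 0.41, adjusted p = 5.67e-07). It lies 1016 bases from the cluster, on the opposite strand and inside CG6511, which had 49.7 ± 2.37 CPM in the mutant and 49.3 ± 1.01 CPM in the heterozygote (log2 fold change 0.01, adjusted p = 0.972). Without a stated use of strand, reads of CG43965 and CG6511 cannot be told apart where they overlap. On the other side Prm, the paramyosin gene, begins 258 bases from the cluster and had 29.6 ± 1.46 CPM in the mutant and 23.4 ± 0.916 CPM in the heterozygote (log2 fold change 0.34, adjusted p = 0.374). Acbp5, listed as CG5804, had 14 summed counts in the mutant and 3 in the heterozygote and was not called (adjusted p = 0.22).

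CG43965 also differed in other comparisons. It was higher in the mutant than in W1118 (log2 fold change 2.33, adjusted p = 0.000794), with 6.31 ± 0.0721 CPM in the mutant and 1.20 ± 0.247 CPM in W1118. In the heterozygote with Panx FL10B it was higher than in W1118 (3.67, adjusted p = 4.12e-06), and in W1118 it was lower than in attp2 (-1.50, adjusted p = 0.00539). In the knockdown against attp2 it was not called (0.51, adjusted p = 0.235). CG43965 was lower in the mutant with Panx FL10B than in the mutant without it (-4.17, adjusted p = 8.3e-06). There SrpRbeta was also called lower (-0.38, adjusted p = 0.0236). Acbp5 was called higher (3.65, adjusted p = 0.0259), from 14 summed counts with Panx FL10B against 1 without it. In the mutant against W1118, Fhos, a formin gene, was also called (-0.40, adjusted p = 0.0118), beside 26.8% of the tested genes. Acbp5 was called lower there as well (-6.36, adjusted p = 0.000366), from 1 summed count in the mutant against 66 in W1118. In the knockdown CG6511 was called higher than in attp2 (0.33, adjusted p = 0.0416).

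**Figure D5:**
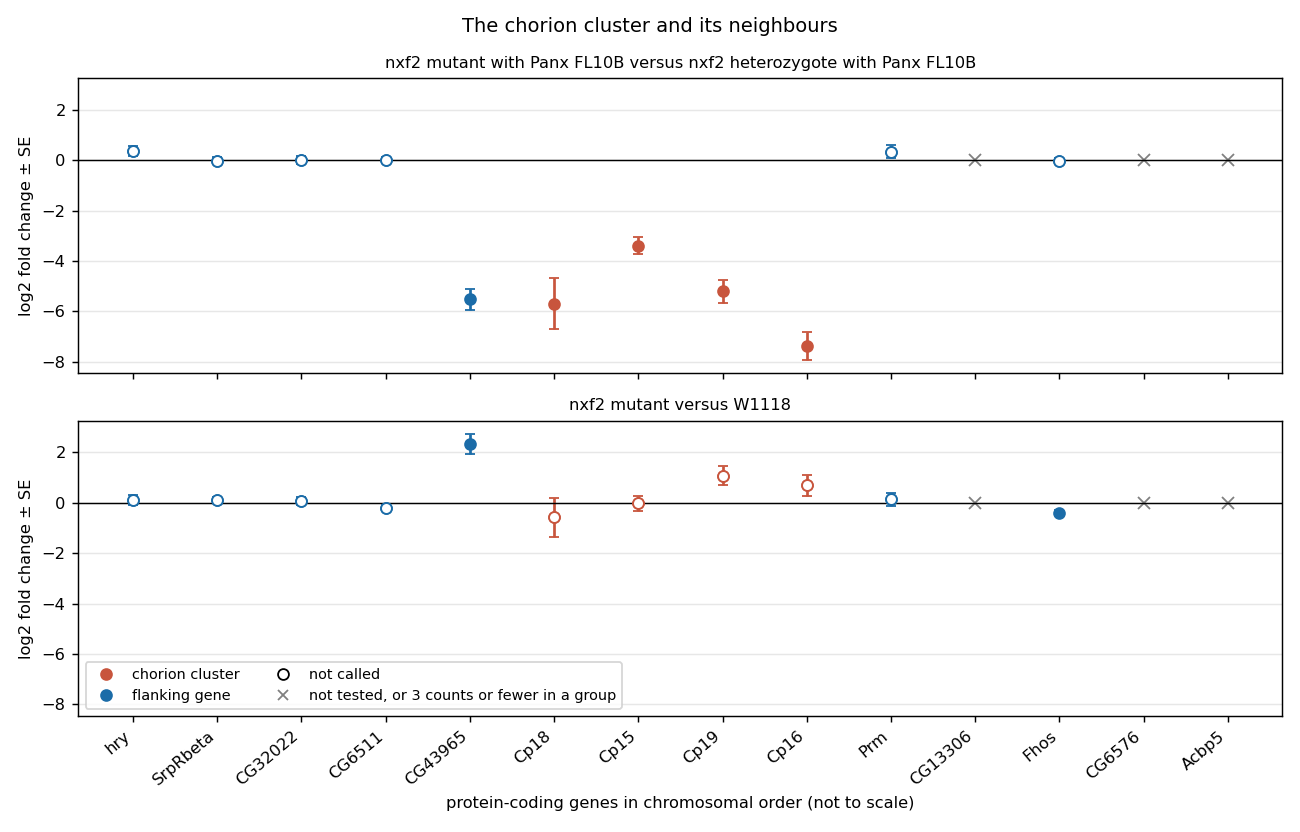
Log2 fold changes with standard errors of the 4 chorion genes and the 5 protein-coding genes on each side, in chromosomal order and not to scale (filled, adjusted p under 0.05; crosses, not tested or 3 counts or fewer in a group). In the upper panel the 4 members and CG43965 (-5.52) lie below -3, and the other neighbours drawn as circles lie between -0.02 and 0.35.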

How the data were processed

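The authors deposited 1 table of raw, unscaled read counts by gene for 12 ovary libraries. Per the submitters' processing notes, all 12 were processed with cutadapt 1.16 and STAR 2.5.2a on dm3, and the 8 without Panx FL10B with featureCounts 1.6.1. How the other 4 were counted, the annotation and any strand setting are not stated in the sources used here. Positions and lengths come from the Ensembl annotation of BDGP6, a later build, so no coordinates are given.

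The tests used edgeR 4.0.16 under R 4.3.3: filterByExpr, TMM scaling and robust quasi-likelihood tests in 1 model of 12 libraries and 6 groups, with 6 residual degrees of freedom and a common BCV (biological coefficient of variation) of 0.102. Called means a Benjamini-Hochberg adjusted p under 0.05 among 8638 tested genes, and each adjusted p comes from this test unless DESeq2 1.42.0 is named. CPM use the TMM factors; likeness uses log2 CPM with a prior count of 2. The fit was tested on simulated data.

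Depth was 3811630 to 11260925 counts, which puts 3 counts at 0.266 to 0.787 CPM.

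The members and lists were chosen with earlier results of these data known. Genes named are the members, nxf2, Cp36, Cp38, the 8 most alike by r, called flanking genes and up to 2 genes per list; Pxt, clos, chif, CG6511, Prm and further list members were named after their values were seen. No promoter or protein sequences were analysed here.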

Additional observations from a re-analysis of the deposited data

Results flagged for a closer look

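For all 4 genes the effect of the nxf2 mutation differed between the libraries with and without Panx FL10B, by the test of that difference in edgeR's model of all 12 libraries. The log2 difference (mutant over heterozygote with Panx FL10B, minus mutant over W1118) was -3.36 for Cp15, -8.05 for Cp16, -5.12 for Cp18 and -6.27 for Cp19, and the Cp18 value had the weakest support (adjusted p = 0.0291). All 5 X-linked chorion genes and 12 of 13 late secreted and crosslinking eggshell genes were called lower for this difference as well. The control with Panx FL10B was an nxf2 heterozygote, and the control without it was the wild-type stock W1118. The processing notes of the libraries with and without Panx FL10B also differ. Control genotype and processing thus cannot be told apart from Panx FL10B here.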

How the results depend on the processing

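Of 380 values of the members under other settings, 327 kept their direction and their side of the threshold. With the direction kept, 25 lost a call and 13 gained one. The other 15 changed sign, whether or not they were called. Among these, Cp16 and Cp19 in the mutant and Cp15 in the knockdown also gained a call, with the other stock as control. No value of the mutant against the heterozygote with Panx FL10B changed sign under the settings run.

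Replicate numbers did not pair the libraries: deviations of same-numbered libraries from their group means correlated at -0.15 to 0.08 over all pairs of groups, and at -0.05 to 0.08 over the 6 pairs with a direct comparison to their own control or counterpart. With the replicate number as a block, 1 member call was lost, that of Cp18 in W1118 against attp2 (-2.15, adjusted p = 0.0656), and 1661 genes were called between the mutant and the heterozygote with Panx FL10B, against 1686 without it.

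With only the compared libraries fitted, the genes called were 3690 for the mutant against the heterozygote with Panx FL10B (1686 otherwise), 188 for the knockdown against attp2 (1356 otherwise), 4414 for the heterozygote with Panx FL10B against W1118 (2761 otherwise), 3160 for the difference with Panx FL10B (1833 otherwise) and 1522 for that of mutant and knockdown (2331 otherwise). Then 4 members were called in the heterozygote with Panx FL10B against W1118 (2 otherwise; 1 without the filter) and 2 in the mutant with against the mutant without Panx FL10B (4 otherwise). DESeq2 called 1 member in the mutant against W1118.

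With the other stock as control, the mutant gave 4849 called genes (2318 otherwise), with 4 members lower and signs turned for Cp16 (-1.93) and Cp19 (-1.46). The knockdown then gave 4485 (1356 otherwise), with 3 members higher and signs turned for Cp15 (1.38) and Cp18 (0.86). With upper-quartile scaling Cp16 in the knockdown was at -0.00.

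Leaving out 1 library at a time, or attp2 replicate 2, which was chosen after seeing the data, gave 721 to 2389 called genes for the mutant against the heterozygote with Panx FL10B, 821 to 3081 for the mutant against W1118, 546 to 2464 for the knockdown against attp2, 2027 to 3984 for the mutants with and without Panx FL10B, 1451 to 3410 for the heterozygote against W1118, 993 to 2567 for the difference with Panx FL10B and 1252 to 3268 for that of mutant and knockdown. Members called were 0 to 2 in the mutant against W1118, 0 to 1 in the knockdown against attp2, 1 in the heterozygote against W1118 and 0 to 2 in the difference of mutant and knockdown. A group left with 1 library is assumed to vary like the others, but the groups did not vary alike. The chi-square per degree of freedom between replicate counts was 1.59 in W1118, and 2.02 and 2.47 in the mutant and the heterozygote with Panx FL10B. It was 11.5 in the mutant without Panx FL10B, 16.8 in the knockdown and 35.7 in attp2. The model of 12 libraries shares information on spread across these groups. Ranges that crossed 0 were those of the mutant against W1118 for Cp15 (-0.49 to 0.32, with 0.07 without W1118 replicate 1) and Cp16 (-0.14 to 1.22). For the knockdown they were those of Cp16 (-0.14 to 0.24, with -0.10 without knockdown replicate 2), Cp18 (-2.33 to 0.39) and Cp19 (-0.02 to 0.57). For the difference of mutant and knockdown they were Cp15 (-0.27 to 0.54), Cp16 (-0.18 to 1.18) and Cp18 (-0.96 to 1.75). The cause of these changes was not tested. Promoter motifs and protein identity, planned at the start, were not run.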
